A study of Mus musculus with 12 samples.

Results

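The 10 genes described here are the brakes on the step from G1 to S phase of the cell cycle, together with the cyclin that releases them. They were taken by gene symbol, with earlier results of these data known, and all 10 were found among the 27179 genes counted. They comprise 3 Cip/Kip inhibitors of cyclin-dependent kinases (Cdkn1a, Cdkn1b and Cdkn1c), 3 Ink4 inhibitors (Cdkn2a, Cdkn2b and Cdkn2c), the 3 Rb family pocket proteins (Rb1, Rbl1 and Rbl2) and cyclin D1 (Ccnd1). RNA was measured in basal and luminal epithelial cells of mammary glands from female mice. Each of the 4 groups had 3 libraries, described as biological replicates. Every mouse carried floxed alleles of Foxp1, a forkhead transcription factor. Controls were Foxp1(fl/fl), and the libraries labelled as Foxp1 knockout came from MMTV-cre/Foxp1(fl/fl) mice, in which the mouse mammary tumour virus promoter drives the Cre recombinase. A Cre-only control group was not analysed here, so Cre and loss of Foxp1 cannot be told apart, and neither the age of the mice nor the way the cells were isolated is stated in the labels.

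In a resting cell, the pocket proteins bind E2F transcription factors and hold down genes needed for DNA synthesis. Cyclin D1 with Cdk4 or Cdk6 starts to phosphorylate the pocket proteins, and cyclin E with Cdk2 completes this, which frees E2F. Ink4 proteins block Cdk4 and Cdk6, whereas Cip/Kip proteins block Cdk2 complexes and also help to assemble cyclin D with its kinase. In the mammary gland cyclin D1 is required for the growth of milk-producing lobules in pregnancy, and p27, the product of Cdkn1b, has been described in the human breast as restraining hormone-responsive progenitors.

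Promoter sequence from RefSeq (GRCm38.p6) was available for 7 of the 10 genes, with 10 start sites. Windows of 300 bases, from 250 before to 50 after each start, were searched on both strands for the E2F-type letters TTTNNCGC and the forkhead-type letters TGTTTAC, which do not overlap each other in these windows. E2F-type letters lie in 5.17% of all 32851 such windows and in 3 of the 10 windows here, both starts of Cdkn2a and the start of Rbl1. Forkhead-type letters lie in 3.65% of all windows and in 0 of these 10. The 3 windows that hold E2F-type letters are shown from 250 bases before the start up to it, 5′ to 3′ on the minus strand, with the matched letters in capitals. The Cdkn2a pair also shows why the count of that gene needs care. Its upstream start, at chr4:89294620-89294869, makes the transcript of p19Arf, which acts on Mdm2 and p53, and its inner start, at chr4:89282193-89282442, makes that of p16Ink4a, which blocks Cdk4 and Cdk6. The Rbl1 stretch is chr2:157204535-157204784.
Cdkn2a, p19Arf start: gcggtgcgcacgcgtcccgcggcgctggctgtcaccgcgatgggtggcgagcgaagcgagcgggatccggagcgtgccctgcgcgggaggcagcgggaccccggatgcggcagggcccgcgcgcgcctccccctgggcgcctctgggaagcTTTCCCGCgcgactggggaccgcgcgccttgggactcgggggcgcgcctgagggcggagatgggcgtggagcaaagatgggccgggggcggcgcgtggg
Cdkn2a, p16Ink4a start: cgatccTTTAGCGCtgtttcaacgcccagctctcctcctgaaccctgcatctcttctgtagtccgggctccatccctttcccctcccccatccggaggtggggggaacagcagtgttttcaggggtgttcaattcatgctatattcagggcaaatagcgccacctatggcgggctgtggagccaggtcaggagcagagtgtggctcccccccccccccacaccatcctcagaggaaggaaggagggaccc
Rbl1 start: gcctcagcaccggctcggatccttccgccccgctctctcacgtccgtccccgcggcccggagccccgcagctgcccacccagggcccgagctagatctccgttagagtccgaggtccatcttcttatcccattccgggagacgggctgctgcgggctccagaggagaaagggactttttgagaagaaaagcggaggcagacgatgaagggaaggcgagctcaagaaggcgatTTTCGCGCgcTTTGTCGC
The first matched base stood at position -99 from the p19Arf start, at -244 from the p16Ink4a start, and at -18 and -8 from the Rbl1 start. A match describes letters only and is not evidence of binding.

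Libraries held 9769361 to 11133908 counts, except 15449513 in luminal knockout-labelled replicate 3. The ribosomal transcript Rn45s made up 3.68% of the counts in luminal control replicate 2 and 0.0626% to 0.314% in the other libraries. Levels are CPM, counts scaled to library size and TMM factors, and a gene is called changed when its adjusted p from edgeR's quasi-likelihood test over 14903 genes, with Benjamini-Hochberg adjustment, is under 0.05. All adjusted p-values of genes below come from that test unless another fit is named. The cell type labels held in the controls, where all 9 basal markers were called lower and 11 of 12 luminal markers higher in luminal cells. The summed level of 8 fibroblast markers was 460 to 597 CPM in basal controls and 1722 to 2843 CPM in basal knockout-labelled libraries, with 2 of the 8 called higher. The summed level of 9 salivary gland markers was 11123 to 122267 CPM in luminal controls and 19981 to 84234 CPM in luminal knockout-labelled libraries. Of the 9, 2 were called higher and 1 lower in that comparison. The same sum was 997 to 4113 CPM in basal controls and 185 to 4547 CPM in basal knockout-labelled libraries. Against basal cells, 6 of the 9 were called higher in luminal cells in controls, and 7 in knockout-labelled libraries. Smr3a stood at 2247 to 22927 CPM in luminal controls and 6.41 to 30.8 CPM in luminal knockout-labelled libraries. Prh1 stood at 0.0925 to 0.187 CPM and 28.4 to 116 CPM. The part of Rn45s or of either marker list in the results below was not tested. A fit without Rn45s and the salivary markers, given in the closing section, cannot show that part. It removes only those genes, and reads of other genes from the same material stay in the counts.

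Foxp1 itself (chromosome 6, 98925342 to 99522746) checks the labels. Its CPM was 221, 213 and 159.7 in basal controls, 212, 193 and 284 in basal knockout-labelled, 82.3, 62.0 and 78.2 in luminal control, and 161, 149.8 and 155 in luminal knockout-labelled libraries. No fall was measured in either cell type, and the luminal counts rose (log2 fold 1.07, SE 0.19, adjusted p = 0.0161). Leaving out luminal control replicate 2 ended that call (adjusted p = 0.0746), as did leaving out knockout-labelled replicate 2 (0.0524) or 3 (0.054). The count goes against the label, though it covers the whole gene and includes reads outside the deleted exons. The libraries are therefore named by their label, and each direction below rests on it.

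Per kilobase of gene length, Cdkn1a was the highest of the 10 genes in 11 of the 12 libraries, and Ccnd1 was highest in the remaining one, luminal control replicate 2. Mean CPM per kilobase of Cdkn1a was 323 in basal controls, 472 in basal knockout-labelled, 103 in luminal control and 194 in luminal knockout-labelled libraries. Ccnd1 came second in every luminal library but that one, with a mean of 89.0 in controls and 84.9 in knockout-labelled libraries, and stood at 20.1 and 11.3 in the basal groups. Cdkn1b lay between 19.3 and 30.9 CPM per kilobase in the 4 group means, and Rb1 between 9.25 and 33.4. Rbl2, at 6.68 to 10.8, was above Rbl1, at 2.32 to 4.14, in each group mean. The Ink4 genes were low, with Cdkn2c at 3.51 to 5.09, Cdkn2b at 1.65 to 8.98 and Cdkn2a at 0.629 to 1.93 CPM per kilobase. Cdkn1c was low too, at 1.22 to 7.70, and was the lowest of the 10 genes in all 3 luminal knockout-labelled libraries. In the plot of levels per length, genes differ widely within a library, and Cdkn2a and Cdkn2b spread widely between libraries. The lowest and highest genes stood at 1.61 and 135 CPM per kilobase in luminal control replicate 1. In basal control replicate 2 they stood at 0.0641 and 316 CPM per kilobase.

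**Figure D1:**
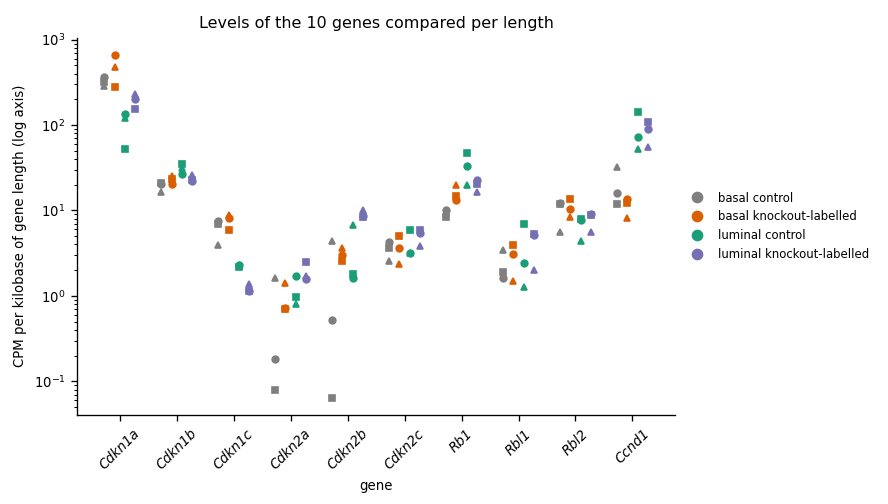
Level of each gene in CPM per kilobase of deposited gene length, on a log axis, with 1 symbol per library and a colour per group. Cdkn1a is highest in 11 of 12 libraries, and Cdkn2a and Cdkn2b are low, with their lowest points in basal controls.

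The first question was how the cell cycle brakes differ between the cell types of the normal gland. In controls, 5 of the 10 genes were called between luminal and basal cells, and 33.2% of all tested genes were called. The count of members was therefore above that share by a small number of genes, and it is given as a description. Luminal cells had more Ccnd1, Rb1 and Cdkn1b RNA and less Cdkn1a and Cdkn1c RNA. In these bulk samples a smaller number of expressing cells and less RNA per cell cannot be told apart. Salivary gland markers also differed between these groups, as given above, and their part in the folds was not tested. These 5 are also the ones whose groups did not overlap, against 44.1% of all genes. Each of the 5 stayed called in all 17 other fits, including those that left out 1 library. The 10 log2 folds had a median of 0.65 and the 14903 genes tested a median of 0.04.

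Cdkn1a (chromosome 17, 29090979 to 29100722) encodes p21, the inhibitor that p53 induces after DNA damage. Basal controls held 743, 640.0 and 583 CPM and luminal controls 274, 107 and 248 CPM. The lowest basal control was above the highest luminal one. Luminal cells had 3.13-fold less Cdkn1a RNA (log2 fold -1.64, SE 0.38, adjusted p = 0.00628). The exons of Cdkn1a share 7.68% of their bases with AC167363.2 on the opposite strand.

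Cdkn1c (chromosome 7, 143458339 to 143461059) encodes p57, an imprinted inhibitor linked to exit from the cell cycle during differentiation. Basal controls held 14.6, 13.3 and 7.57 CPM and luminal controls 4.49, 4.25 and 4.42 CPM. The luminal values lay close together and under each basal value. The level was 2.69-fold lower in luminal cells (log2 fold -1.43, SE 0.28, adjusted p = 0.00248). In GENCODE vM21, 30.7% of the exon bases of Cdkn1c are shared with Gm44732 on the opposite strand, and the library kit does not mark strand, so reads of the pair cannot be told apart there.

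Cdkn1b (chromosome 6, 134920401 to 134925525) moved the other way from its 2 relatives. Its level was 48.9, 50.7 and 40.0 CPM in basal controls and 64.4, 83.6 and 75.2 CPM in luminal controls. All luminal controls were above all basal ones. The difference was the smallest of the 5, 1.60-fold (log2 fold 0.68, SE 0.16, adjusted p = 0.00735).

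Rb1 (chromosome 14, 73192858 to 73325951), the retinoblastoma protein gene, stood at 46.7, 38.9 and 42.9 CPM in basal controls and at 152, 220.1 and 91.7 CPM in luminal controls. The basal values were tight and the luminal ones spread, yet the groups did not meet. Luminal cells had 3.61-fold more (log2 fold 1.85, SE 0.29, adjusted p = 0.000513). Its exons share 6.78% of their bases with Lpar6 and 8.11% with Rcbtb2, both on the other strand. Lpar6 and Rcbtb2 had log2 folds of 0.57 and 0.20 in the same comparison, neither of them called.

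Ccnd1 (chromosome 7, 144929931 to 144939831) had the largest fold of the 10. Basal controls had 61.0, 45.3 and 123 CPM, and luminal controls 277, 536 and 201 CPM. Basal control replicate 3 was the highest of its group and still under each luminal control. The level was 4.42-fold higher in luminal cells (log2 fold 2.14, SE 0.45, adjusted p = 0.00370), and the log2 fold was 2.67 without basal control replicate 3. The exons of Ccnd1 share 23.4% of their bases with LTO1 on the opposite strand.

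The other 5 genes were not called in controls. Rbl1, which encodes p107 (chromosome 2, 157145893 to 157204534), had a log2 fold of 0.61 (SE 0.60). Rbl2, which encodes p130, the pocket protein of resting cells (chromosome 8, 91070057 to 91123844), had -0.56 (SE 0.33). Rbl2 stood at 59.3, 57.5 and 27.6 CPM in basal controls and at 38.0, 38.5 and 21.5 CPM in luminal controls. Replicate 3 was lowest in both groups, and same-numbered libraries were taken as paired because their values correlated. With replicate number as a block, Rbl2 was called lower in luminal cells (log2 fold -0.54, adjusted p = 0.0172), in a fit that called 43.8% of genes. It was also called without basal control replicate 3 (-0.84, adjusted p = 0.0490), in a fit that called 34.1% of genes. Cdkn2c, which encodes p18 (chromosome 4, 109660876 to 109666756), had a log2 fold of 0.22 (SE 0.37).

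Cdkn2a (chromosome 4, 89274473 to 89294619) and Cdkn2b, the p15 gene beside it (89306289 to 89311032), were set by single libraries. Basal controls held 2, 1 and 20 counts of Cdkn2a, and luminal controls 21, 12 and 9. For Cdkn2b the counts were 7, 1 and 66 in basal controls and 24, 27 and 94 in luminal controls. Replicate 3 was the highest basal control for both genes. Their log2 folds were 0.87 (SE 0.78) and 1.03 (SE 0.91), not called. Without basal control replicate 3, in a fit that called 34.1% of genes, they were 3.10 (adjusted p = 0.00561) and 3.55 (adjusted p = 0.00717), while without luminal control replicate 3 the fold of Cdkn2b was -0.02 (adjusted p = 0.991). Because the count is per gene, p16Ink4a and p19Arf, whose starts are shown above, cannot be separated.

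The same comparison in the knockout-labelled libraries shares no library with that in controls. There 3 of the 10 genes were called, and 40.6% of all genes were. Cdkn1c was lower in luminal cells (log2 fold -2.65, SE 0.29, adjusted p = 5.22e-05), as was Cdkn1a (-1.28, SE 0.37, adjusted p = 0.0178), and Ccnd1 was higher (2.91, SE 0.47, adjusted p = 0.000554). Leaving out basal knockout-labelled replicate 1 (adjusted p = 0.0829) or luminal knockout-labelled replicate 2 (0.0717) ended the Cdkn1a call. The fold of Rb1 was 0.31 (SE 0.28, adjusted p = 0.404) and that of Cdkn1b 0.03 (SE 0.16, adjusted p = 0.895). Groups did not overlap for 5 of the 10 genes, against 54.9% of all genes. The additional 2 were Cdkn2a (1.02, SE 0.74) and Cdkn2b (1.55, SE 0.89), higher in luminal cells and not called. With the 2 groups alone in the fit, Cdkn2b was called (log2 fold 1.51, adjusted p = 0.00224), as were 40.6% of genes. In the plot of luminal against basal folds, the pairs of points for Rb1, Cdkn1b and Cdkn1c stand apart and those for the other genes overlap within their standard errors.

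**Figure D2:**
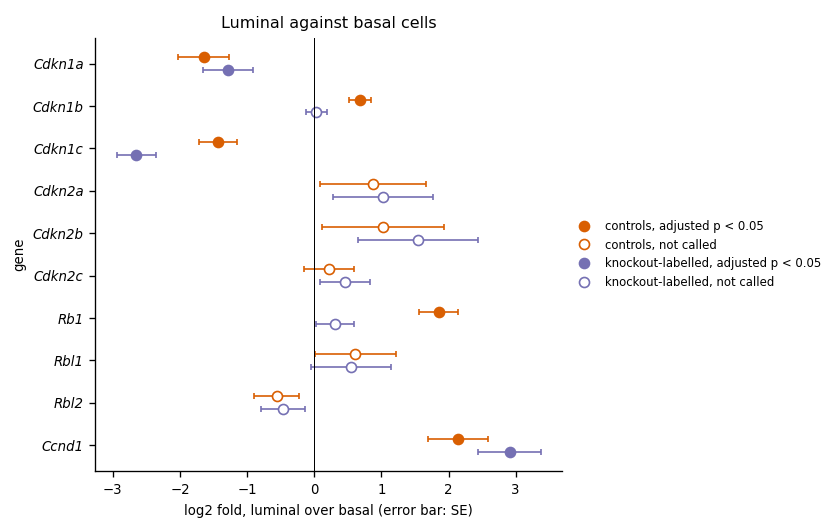
Log2 fold of luminal over basal cells for each gene, in controls and in knockout-labelled libraries, with SE bars and filled points for adjusted p under 0.05. Rb1 is at 1.85 in controls and 0.31 in knockout-labelled libraries, and Cdkn1c at -1.43 and -2.65.

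The second question was whether the 10 genes differ between knockout-labelled and control libraries. In basal cells 0 of the 10 were called by edgeR, where 0.671% of all genes were called, and 1 had an unadjusted p under 0.05, as did 8.88% of all genes. DESeq2 also called 0 of the 10, with 2.46% of genes called, and limma-voom 0, with 0.953%. The log2 folds of 9 of the 10 were above 0, with a median of 0.31, and the median over all genes was -0.01. Groups did not overlap for 1 gene, Rb1, against 12.4% of all genes.

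In luminal cells 0 of the 10 were called by edgeR, where 3.03% of all genes were called, and 4 had an unadjusted p under 0.05, against 17.2% of all genes. DESeq2 again called 0 of the 10, with 6.67% of genes called, and limma-voom 0, with 2.93%. Groups did not overlap for 4 of the 10, against 25.4% of all genes. Cdkn1a and Cdkn2b were higher and Cdkn1b and Cdkn1c lower in the knockout-labelled libraries. The median of the 10 log2 folds was 0.22 and that over all genes -0.03. Each gene's values in all 12 libraries follow by family.

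**Figure D3:**
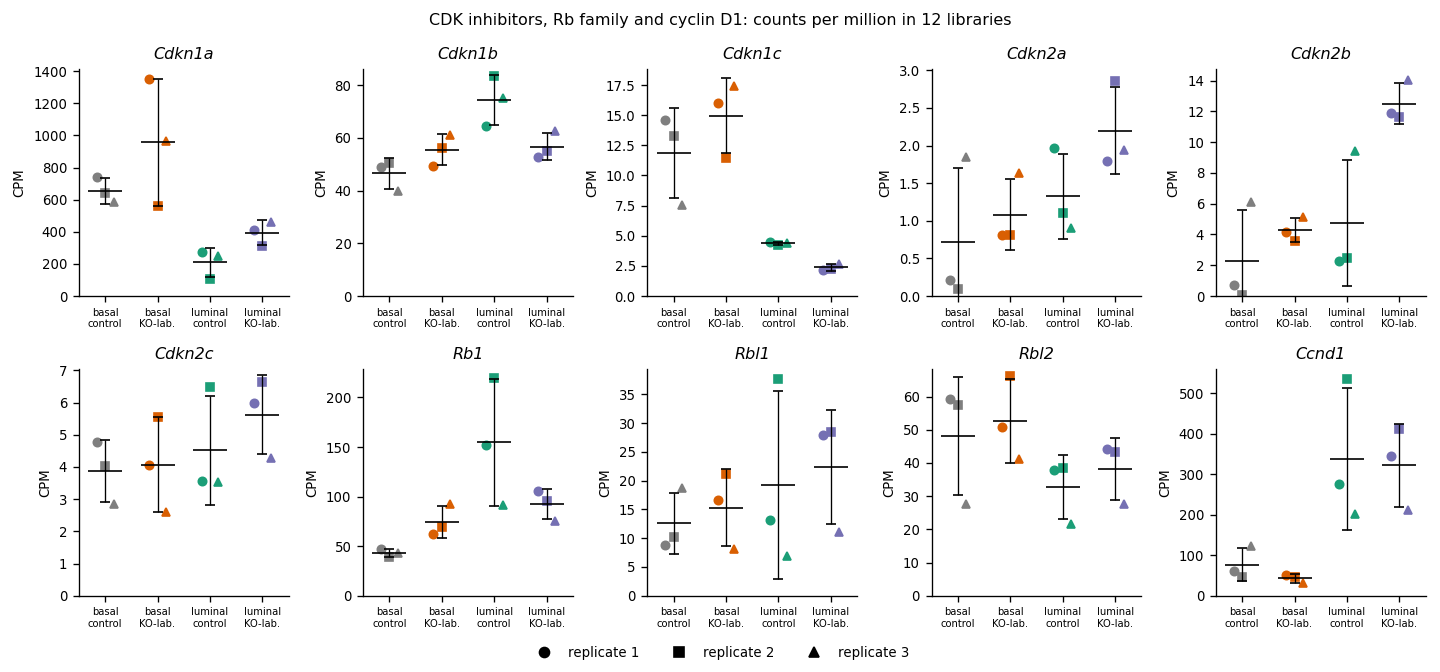
CPM of each gene in the 12 libraries, by group, with a symbol per replicate number and bars for mean and SD of 3 libraries. Cdkn1c is at 2.19 to 2.67 CPM in luminal knockout-labelled and 4.25 to 4.49 CPM in luminal control libraries, and Rb1 overlaps in luminal but not in basal cells.

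For Cdkn1a, luminal knockout-labelled libraries held 408, 309 and 464 CPM against 274, 107 and 248 CPM in controls, with no overlap. The means were 394 ± 78.6 and 209.6 ± 89.8 CPM (SD, n = 3), and the log2 fold was 0.91 (SE 0.37, adjusted p = 0.231). Same-numbered luminal libraries were taken as paired because their values correlated, so the pairing is inferred from the data. With replicate number as a block, the log2 fold was 0.99 with an adjusted p of 0.0511. That fit called 7.36% of genes, 1097 in place of 451. In the luminal libraries alone with the block, Cdkn1a was called (log2 fold 1.01, adjusted p = 0.0426), as were 9.86% of genes. The basal knockout-labelled libraries held 1349, 558 and 964 CPM, and the second lay below all controls. The basal means were 957 ± 395 and 655 ± 81.1 CPM (SD, n = 3), and the log2 fold was 0.55 (SE 0.37, adjusted p = 0.851). The summed level of 9 basal markers was 151 to 764 CPM in luminal controls and 389.6 to 1069 CPM in luminal knockout-labelled libraries, which overlap, and 1 of the 9 was called higher. That marker, named after its values were seen, was Trp63, at 2.03 to 15.7 CPM in luminal controls and 27.5 to 71.8 CPM in luminal knockout-labelled libraries (log2 fold 2.80, SE 0.58, adjusted p = 0.0253). The median log2 fold of the 9 basal markers in luminal cells was -0.19. Group means of Krt5, Krt14, Krt17 and Trp63 were higher in luminal knockout-labelled libraries than in luminal controls. Those of Acta2, Myh11, Mylk, Cnn1 and Oxtr were lower. The summed level of 7 endothelial markers was 98.7 to 163 CPM and 69.6 to 85.7 CPM in the same groups, with 0 of the 7 called. The part of these markers in the Cdkn1a value and in the other luminal values was not tested. From highest to lowest the Cdkn1a group means ran basal knockout-labelled, basal control, luminal knockout-labelled and luminal control, and of the neighbours in that order the first pair overlapped.

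Cdkn1c stood at 2.19, 2.24 and 2.67 CPM in luminal knockout-labelled libraries, under the 4.25 to 4.49 CPM of luminal controls. These values rest on 22 to 48 counts per library. The log2 fold was -0.88 (SE 0.29, adjusted p = 0.136), and it ran from -0.98 to -0.83 as single libraries were left out. The basal knockout-labelled libraries held 16, 11.5 and 17.4 CPM, overlapping the basal controls, and the log2 fold was 0.34 (SE 0.27, adjusted p = 0.916).

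Cdkn1b stood at 52.7, 54.9 and 62.5 CPM in luminal knockout-labelled libraries, each below the 64.4 CPM of the lowest luminal control. The means were 56.7 ± 5.17 and 74.4 ± 9.64 CPM (SD, n = 3), and the log2 fold was -0.39 (SE 0.16, adjusted p = 0.230). Basal knockout-labelled libraries held 49.3, 56.2 and 61.1 CPM, which overlapped the basal controls (log2 fold 0.26, SE 0.16, adjusted p = 0.812). The knockout-labelled groups of the 2 cell types thus had similar means, 55.5 ± 5.88 CPM in basal and 56.7 ± 5.17 CPM in luminal cells (SD, n = 3).

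Among the Ink4 genes, Cdkn2b stood at 11.9, 11.6 and 14.0 CPM in luminal knockout-labelled libraries and at 2.25, 2.50 and 9.45 CPM in luminal controls. The groups did not overlap, but the third control lay near the knockout-labelled values. The log2 fold was 1.41 (SE 0.88, adjusted p = 0.460), and 2.42 without that control (adjusted p = 0.219). In basal cells Cdkn2b held 41, 40 and 47 counts in knockout-labelled libraries, between the lowest and the highest control, and the log2 fold was 0.88 (SE 0.92, adjusted p = 0.961). That fold was 3.41 without basal control replicate 3 (adjusted p = 0.0966). Cdkn2a held 8, 9 and 15 counts in basal and 18, 32 and 29 counts in luminal knockout-labelled libraries, and both groups overlapped their controls. Its log2 folds were 0.57 (SE 0.80) in basal and 0.72 (SE 0.73) in luminal cells. Cdkn2c lay between 2.61 and 6.62 CPM in all 12 libraries, with log2 folds of 0.07 (SE 0.37) and 0.31 (SE 0.37).

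Rb1, like Cdkn1b and Cdkn1c, had folds of opposite sign in the 2 cell types. The basal knockout-labelled libraries held 62.0, 69.2 and 92.7 CPM, each above the 38.9 to 46.7 CPM of controls. The means were 74.6 ± 16 and 42.8 ± 3.91 CPM (SD, n = 3), and the log2 fold was 0.80 (SE 0.28, adjusted p = 0.312). The fibroblast markers given above were higher in the same libraries. The summed level of 12 luminal markers was 1277 to 1672 CPM in basal controls and 1607 to 2630 CPM in basal knockout-labelled libraries. These ranges overlap. Of the 12, 1 was called higher, and their median log2 fold in basal cells was 0.43. The part of either marker list in the Rb1 value was not tested. The luminal knockout-labelled libraries held 106, 95.7 and 75.8 CPM against 152, 220.1 and 91.7 CPM in controls, where the third control fell within the other group's range. The luminal log2 fold was -0.74 (SE 0.28, adjusted p = 0.187). Without luminal control replicate 3 it was -0.99 and called (adjusted p = 0.0377), in a fit that called 3.85% of genes, and without luminal control replicate 2 it was -0.40 (adjusted p = 0.540). Of the genes that share exon bases with Rb1, Lpar6 had a basal log2 fold of 0.63 and a luminal one of 0.08, and Rcbtb2 of -0.03 and 0.68, none called.

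The other pocket protein genes overlapped between knockout-labelled and control groups in both cell types. Rbl1 stood at 8.82, 10.3 and 18.7 CPM in basal controls, 16.7, 21.2 and 8.04 CPM in basal knockout-labelled, 13.2, 37.7 and 6.84 CPM in luminal control, and 27.9, 28.4 and 11 CPM in luminal knockout-labelled libraries. Replicate 3 was the highest basal control and the lowest library of each of the other 3 groups. Mki67, a proliferation marker, had the same arrangement, at 55.6, 44.0 and 167 CPM in basal controls, and replicate 3 was at 20.7 to 24.2 CPM in the other groups. The log2 folds of Rbl1 were 0.29 (SE 0.60, adjusted p = 0.986) in basal and 0.22 (SE 0.59, adjusted p = 0.901) in luminal cells. Rbl2 stood at 50.9, 66.2 and 41.1 CPM in basal knockout-labelled and at 44.1, 43.2 and 27.5 CPM in luminal knockout-labelled libraries. Its log2 folds were 0.13 (SE 0.33, adjusted p = 0.990) and 0.23 (SE 0.33, adjusted p = 0.784), and replicate 3 was the lowest library of every group. The exons of Rbl2 share 9.17% of their bases with Aktip and 11.8% with Gm45464, both on the opposite strand.

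Ccnd1 stood at 51.6, 46.4 and 30.6 CPM in basal knockout-labelled libraries, each below basal controls 1 and 3 and spread around the second. The means were 42.9 ± 10.9 and 76.4 ± 41.1 CPM (SD, n = 3), and the log2 fold was -0.83 (SE 0.44, adjusted p = 0.672). Without basal control replicate 3, the library with the highest Mki67 of its group, the fold was -0.31 (adjusted p = 0.902). The luminal knockout-labelled libraries held 344, 413 and 211 CPM, within the range of the controls, and the log2 fold was -0.07 (SE 0.43, adjusted p = 0.961). The plot of knockout-labelled against control folds shows these values side by side.

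**Figure D4:**
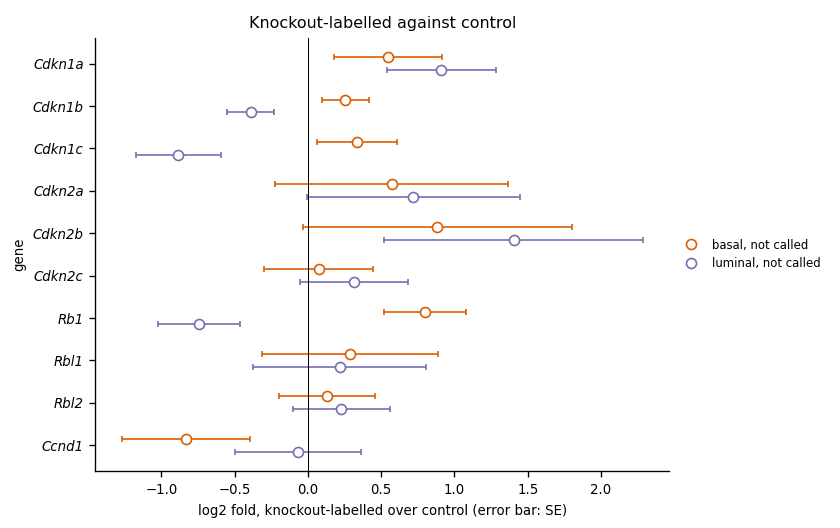
Log2 fold of knockout-labelled over control libraries for each gene in basal and in luminal cells, with SE bars. No point passed an adjusted p of 0.05, and Rb1 lies at 0.80 in basal and -0.74 in luminal cells.

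Whether the luminal fold differed from the basal one was tested directly. By edgeR 0 of the 10 genes were called, where 0.275% of all genes were, and 3 had an unadjusted p under 0.05, against 9.84% of all genes. DESeq2 called 1 of the 10, with 2.2% of genes called, and limma-voom 0, with 0.148%. The luminal log2 fold of Rb1 was below its basal one by -1.55 (SE 0.39, adjusted p = 0.132). This difference was the one that DESeq2 called (-1.52, adjusted p = 0.0202). It was also called by edgeR without luminal control replicate 3 (-1.78, adjusted p = 0.0394), where 0.562% of genes were. The differences were -1.22 (SE 0.40, adjusted p = 0.275) for Cdkn1c and -0.65 (SE 0.23, adjusted p = 0.320) for Cdkn1b. Ccnd1 had a difference of 0.77 (SE 0.61, adjusted p = 0.801) and Cdkn1a of 0.36 (SE 0.52, adjusted p = 0.921). The other 5 genes had differences between -0.07 and 0.52.

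The rest of the pathway was read from 6 lists with 100 genes in all. In the knockout comparisons 3 of these genes were called, 1 of 100 in basal and 2 of 100 in luminal cells, near the 0.671% and 3.03% called among all genes. In basal cells 0 of the 14 G1 cyclins and CDKs, 0 of the 18 E2F, DP and DREAM factors, 0 of the 23 S phase and mitosis genes, 0 of the 18 p53 genes and 0 of the 11 genes of p27 turnover were called. Of the 16 regulators of the Ink4/Arf locus, 1 rose. It was Id3, an inhibitor of helix-loop-helix factors, whose knockout-labelled libraries held 262, 246 and 238 CPM and controls 125, 79.5 and 63.5 CPM. Its log2 fold was 1.48 (SE 0.29, adjusted p = 0.0493), and the call was lost when any of the 6 basal libraries was left out (adjusted p up to 0.227). The fibroblast markers that were higher in the same libraries are given above, and their part in Id3 was not tested.

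In luminal cells 2 of the 18 p53 genes rose and 0 genes of the other 5 lists were called, so the 2 of 100 list genes were no excess over the 3.03% of all genes. Pmaip1, which encodes the pro-apoptotic protein Noxa, stood at 81.7, 89.4 and 130.3 CPM in knockout-labelled libraries and at 10.2, 9.71 and 13.8 CPM in controls. The log2 fold was 3.16 (SE 0.34, adjusted p = 0.00149), and it stayed called in all 17 other fits. The basal log2 fold of Pmaip1 was 0.59 (SE 0.32, adjusted p = 0.678), and the luminal fold was called larger by 2.57 (SE 0.45, adjusted p = 0.0474). The call of that difference was lost in 10 of the 12 fits that left out 1 library (adjusted p up to 0.127) and by limma-voom (0.0672). Polk, a DNA polymerase that copies past damaged bases, stood at 41.0, 46.8 and 64.8 CPM against 17.1, 16.7 and 32.6 CPM (log2 fold 1.20, SE 0.27, adjusted p = 0.0400). Leaving out luminal control replicate 1 (adjusted p = 0.146) or 2 (0.158), or knockout-labelled replicate 2 (0.0950) or 3 (0.149), ended the Polk call. The median log2 fold of the p53 list was 0.30, that of the S phase and mitosis list -0.06 and that of the p27 turnover list -0.38, beside -0.03 over all genes.

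**Figure D5:**
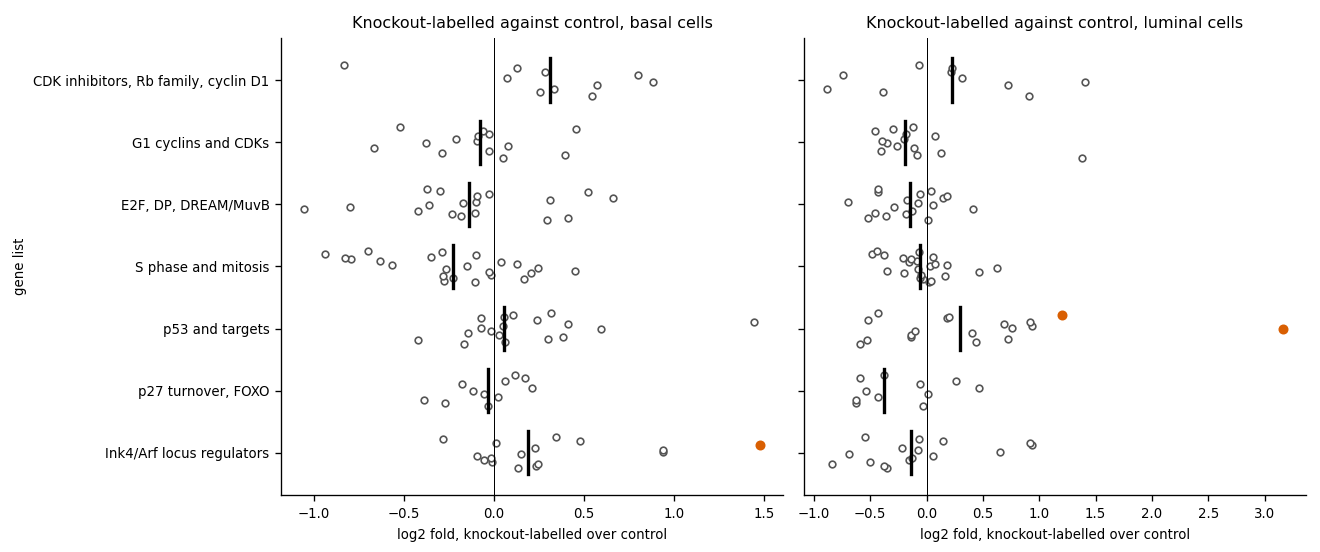
Log2 fold of knockout-labelled over control libraries for the 10 genes and the 6 pathway lists, with 1 point per gene, filled where the adjusted p is under 0.05, and a vertical bar at each list's median. The filled points are Id3 in basal cells and Pmaip1 and Polk in luminal cells.

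Genes of those lists that had the lowest p without being called complete the picture. In basal cells these were the cyclin Ccnd3 (log2 fold 0.40), the MuvB subunit Lin52 (0.66), the replication licensing factor Cdt1 (0.45), Trp53inp1 of the p53 list (1.44) and Cks1b, a cofactor in p27 degradation (-0.39). In luminal cells they were Ccnd2 (1.38), Lin9 of the MuvB complex (-0.69), the ribonucleotide reductase subunit Rrm2 (0.62), Foxo3, a forkhead activator of Cdkn1b (-0.59), and Id3 (0.94). Ccnd2, a D-type cyclin like Ccnd1, stood at 1.59, 2.13 and 4.93 CPM in luminal controls and at 2.99, 12.5 and 6.81 CPM in luminal knockout-labelled libraries. With the block that pairs the luminal libraries, Lin9 was called (-0.71, adjusted p = 0.0387), and with the luminal libraries alone and the block Foxo3 was called (-0.56, adjusted p = 0.0386). By DESeq2, Id3 was called in luminal cells (0.95, adjusted p = 0.0396). Trp53inp1 was called in basal cells in 1 of the 17 other fits, which was not a fit that left out a library.

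Between the control cell types 21 of the 100 list genes were called, a smaller share than the 33.2% of all genes. The D-type cyclins Ccnd1 and Ccnd2 went in opposite directions. Ccnd3, at 29.1 to 34.8 CPM in basal and 38.6 to 45.5 CPM in luminal controls, was not called. Ccnd2 stood at 185, 156 and 96.8 CPM in basal controls, and its log2 fold was -5.67 in luminal cells (SE 0.57, adjusted p = 2.56e-05), whereas Ccnd1 was higher there. Of the G1 cyclins and CDKs, 1 of 14 was higher, the Cdk7 partner Mnat1 (0.78), and 1 was lower, Ccnd2. Among the E2F, DP and DREAM factors 3 of 18 were higher, namely E2f2 (2.36), Lin9 (1.14) and Lin37 (0.82), and 1 was lower, the E2F partner Tfdp2 (-1.03). Of the 23 S phase and mitosis genes 0 were called by edgeR, and Pcna, the sliding clamp of DNA polymerase, had the lowest p (-0.85, adjusted p = 0.0537). Pcna was called by DESeq2 (-0.88, adjusted p = 0.0255). The p53 list had 3 of 18 genes higher and 3 lower, and the lowest p-values belonged to Phlda3 (-3.18), Pmaip1 (-1.35) and Mdm2, the ligase that degrades p53 (-0.92), all lower in luminal cells as Cdkn1a was. The 3 higher ones were Trp53inp1 (1.96), Polk (0.91) and the p53 inhibitor Mdm4 (0.65). Of the 11 genes of p27 turnover, Cops5 was higher (0.45, adjusted p = 0.0426) and Skp1a lower (-0.61, adjusted p = 0.00899). Of the 16 Ink4/Arf regulators, the Polycomb genes Bmi1 (1.06) and Cbx7 (1.02) were higher, and 5 were lower: Tbx2, a repressor of the locus (-2.83), the histone demethylase Kdm6b (-1.19), Id1 (-1.18), Id2 (-0.88) and Id3 (-0.87). Tfdp2, Trp53inp1, Polk, Mdm4, Cbx7, Id1, Id2 and Id3 are named here because they complete counts, and were chosen after their values were seen. Of the 21 list genes, 7 stayed called whichever control library was left out, namely Ccnd2, Lin9, Phlda3, Pmaip1, Skp1a, Bmi1 and Tbx2. The other 14 lost the call in at least 1 such fit, and each of the 6 control libraries ended at least 1 call.

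For each of the 10 genes, the profiles most like it over the 12 libraries were found by the root mean square (RMS) difference of centred log2 CPM. The nearest to Rbl1 were Tyms (RMS 0.23) and Gins1 (0.27), against an SD of Rbl1 itself of 0.79. Tyms, thymidylate synthase, stood at 7.47, 9.02 and 14.7 CPM in basal controls and at 9.54, 27.4 and 4.93 CPM in luminal controls, with the extreme replicates where Rbl1 had them. The nearest to Cdkn1a was Fam83g (RMS 0.20, SD of Cdkn1a 0.98), to Cdkn1b Gps2 (0.11, SD 0.29), to Cdkn1c Hspb8 (0.22, SD 1.10) and to Rb1 Trim65 (0.20, SD 0.74). For Rbl2 it was Zer1 (0.14, SD 0.49), for Cdkn2c Eif2d (0.16, SD 0.42) and for Ccnd1 Fam234b (0.35, SD 1.44). Cdkn2a and Cdkn2b had the least close neighbours, Enah (0.38, SD 1.04) and Ly6d (0.59, SD 1.68). These are descriptions over libraries that share cell type and replicate, with no test.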

How the data were processed

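Each deposited table holds read counts per gene, in whole numbers that the authors did not normalize, and a length per gene, another deposited quantity, used here for the per-kilobase levels. CASAVA 1.8.2, featureCounts and mm10 are named in the submitters' processing notes, and the TruSeq RNA v2 kit in the labels' protocols. No aligner, annotation or strand setting is named in the sources used here. Tables of the 12 single libraries and the series table differed in 0 values.

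Genes were kept by edgeR's filterByExpr, which left 14903 genes with at least 99.85% of the counts of each library and all 10 members. edgeR 4.0.16 (R 4.3.3, TMM, robust quasi-likelihood) fitted 4 group means to 12 libraries with 8 residual degrees of freedom, tested on simulated data first. SE is the absolute log2 fold over the root of F. A common biological coefficient of variation, 32.6%, limits what 3 libraries a group can show. No 2 libraries of a group agreed within sampling noise (chi-square per degree of freedom 11.7 or more).

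Members and lists were chosen with earlier results of these data known. Named were all 10 members, Foxp1, from each list up to 3 called genes with the lowest p (or the 1 with the lowest p), and the 2 nearest profiles per member (log2 CPM, prior count 2), of which the nearest are printed for most. The list entry Skp1 was matched as Skp1a.

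Same-numbered libraries were taken as paired where their deviations from group means correlated above 0.1 in every pair. This held for the luminal knockout comparison (0.356, 0.301 and 0.535) and for luminal against basal controls (0.308, 0.425 and 0.473). Alternatives were other scalings, filters, DESeq2 1.42.0, limma-voom (limma 3.58.1), fewer groups, the block and each library left out. The block within 2 groups alone was added after seeing the data. Positions and promoters are from RefSeq GRCm38.p6, the mm10 assembly, and exon overlaps from GENCODE vM21.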

Additional observations from a re-analysis of the deposited data

Results flagged for a closer look

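Pmaip1, a p53 target outside the 10 genes, had a knockout-labelled against control fold that was larger in luminal than in basal cells, by a log2 difference of 2.57 (SE 0.45, adjusted p = 0.0474 by edgeR). It stood at 81.7, 89.4 and 130.3 CPM in luminal knockout-labelled libraries and at 64.9, 26.8 and 37.6 CPM in basal ones, and was higher in 3 of 3 luminal knockout-labelled libraries than in any luminal control. The difference was no longer called in 10 of the 12 fits without 1 library. It was the difference between cell types that drew attention, and 0 of the 10 genes themselves passed the same test.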

How the results depend on the processing

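The limits are 3 libraries a group and, for Cdkn2a and Cdkn2b, counts as low as 1 in a library. Over the 10 genes and all comparisons, 510 of the values recomputed with all libraries of the comparison kept their direction and side of the threshold, 9 gained a call, 0 lost one and 9 changed sign. With 1 library left out, 323 did so, 5 gained a call, 2 lost one and 30 changed sign, none of those that changed sign being called. A fit without salivary gland markers and Rn45s ended or added no call among the 10. It removes only those genes, so the part of such material in the 10 was not tested. Scaling by library size alone moved the median log2 fold of all genes by 0.113 between knockout-labelled cell types, where 3076 genes were then higher and 2796 lower, against 2860 and 3184.

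The basal knockout comparison called 100 genes, but 59 by library size alone, 414 by DESeq2, 151 with its 2 groups alone, 236 with the replicate block, 16 with both, and 17 to 122 with 1 library left out. Without basal control replicates 1 and 2 the counts were 17 and 28, and without knockout-labelled replicates 1, 2 and 3 they were 35, 28 and 49. The luminal one called 451 genes, but 1092 by DESeq2, 199 with its 2 groups alone, 1097 with the block, 1355 with both, and 127 to 589 with 1 library left out (129 and 127 without control replicates 1 and 2, 142 and 168 without knockout-labelled replicates 2 and 3). The difference between cell types called 41 genes, but 351 by DESeq2, 22 by limma-voom, 106 with the block, and 10 to 86 with 1 library left out, moving by over 1.5 times for every library but luminal knockout-labelled replicate 1 (48). In the basal knockout comparison, same-numbered libraries did not meet the pairing rule given above (correlations -0.087, 0.358 and 0.13). The knockout-labelled lineage comparison missed it by its lowest pair (0.0868, 0.416 and 0.42). There each basal library was most like the luminal one of its own number, so pairing was not settled. In the second, the block called Rbl2 (-0.47, adjusted p = 0.0243), in a fit that called 7634 genes. In the same comparison the 2 groups with the block called Rbl1 (0.50, adjusted p = 0.0425), Rbl2 (-0.51, 0.0252) and Cdkn2b (1.51, 0.00139). That fit called 7299 genes. Between control cell types, the 2 groups with the block also called Rbl2 (-0.56, adjusted p = 0.0319), in a fit that called 5050 genes. Beside these and the results given above, the block changed no other call of the 10.

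Values that changed sign, none called, were Ccnd1 in luminal cells (0.014 by limma-voom, 0.014 in the 2 groups with the block, -0.31 to 0.43 without 1 library), and Cdkn1b between knockout-labelled cell types (-0.0076 in the 2 groups, -0.0065 with the block, -0.049 to 0.091 without 1 library). For the difference between cell types they were Cdkn2a (-0.65 by limma-voom, -0.0034 with the block, -2.08 to 0.67 without 1 library), Cdkn2b (-0.58, and -2.0 to 1.56), Rbl1 (0.12, 0.31 with the block, and -0.47 to 0.87) and Rbl2 (-0.11 to 0.37). Leaving out 1 library also turned the basal folds of Cdkn2c (-0.22 to 0.31), Rbl2 (-0.15 to 0.29) and Rbl1 (-0.021 to 0.68), the luminal fold of Rbl1 (-0.16 to 1.16), and between control cell types Cdkn2c (-0.13 to 0.35), Rbl1 (-0.32 to 1.01) and Cdkn2b (-0.022 to 3.55). The cause was not tested. Of the 20 nearest profiles, 15 were found again with a prior count of 0.5.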
